A study of Mus musculus with 2 samples.

Results

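The inflammasome genes described here are 10 genes chosen by name: the sensors Nlrp3, Nlrc4, Aim2 and Nlrp1b, the NLRP3 partner Nek7, the adaptor Pycard, the caspases Casp1 and Casp4, the pore protein gene Gsdmd and the cytokine gene Il18. All 10 symbols were found among the 55536 mouse gene identifiers of the deposited tables. RNA depleted of ribosomal RNA was sequenced from nuclei of macrophages grown from C57BL/6J bone marrow and treated with lipid A, the part of bacterial lipopolysaccharide that TLR4 senses, at 100 ng/ml for 20 min. The fraction is called nucleoplasmic in one label and nuclear in another. There was 1 group of 2 libraries: replicate 1 was made from 1000 ng of RNA and replicate 2 from 500 ng. Both carry the same donor identifier, the labels give neither sex nor age, and they do not say whether the 2 libraries came from separate cultures or animals. No unstimulated library and no other time was analysed here, so no value below is a response to lipid A, and no test between groups was possible. An SD over n = 2 therefore measures only the spread between these libraries, and RNA input cannot be told apart from replicate.

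Inflammasomes are protein platforms that assemble in the cytosol when a sensor meets a microbial or danger signal. The adaptor ASC, encoded by Pycard, links the sensor to pro-caspase-1, which then cuts pro-IL-1β, pro-IL-18 and gasdermin D, and the released end of gasdermin D forms pores in the plasma membrane. Caspase-4 of the mouse, often called caspase-11, binds intracellular lipopolysaccharide itself and also cuts gasdermin D. In macrophages, signalling through TLR4 is known to raise transcription of Nlrp3 and Il1b, a step called priming.

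The expected counts of the genes summed to 18194818 in replicate 1 and 18667509 in replicate 2. All 10 macrophage marker genes, among them Csf1r and Adgre1, reached 1 TPM in both libraries, and their median was 223 TPM in replicate 1 and 234 TPM in replicate 2. TPM is a library's RNA level with transcript length divided out. None of the marker genes for neutrophils, B cells, T and NK cells, erythroid cells, mast cells and basophils, or stroma reached 1 TPM in both libraries in the first of 2 deposited quantifications, which gives every TPM below unless the second is named, and Ly6g, Retnlg and Cd3e were listed at 0. In the second quantification Cd3d, a T cell gene, had 2.90 TPM in replicate 1 and 9.43 TPM in replicate 2, and Pecam1, an endothelial gene of the stromal list, had 3.22 and 7.67 TPM in the same order. In the first quantification, 1 of 3 monocyte markers (Ccr2), 1 of 5 dendritic cell markers (Zbtb46) and 2 of 3 megakaryocyte markers (Pf4 and Itga2b) reached 1 TPM in both libraries. In a bulk sample, fewer cells of a type and less RNA per cell cannot be told apart.

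All 10 inflammasome genes had nuclear RNA in both libraries. Each reached 1 TPM in both, against 9889 of 22015 nuclear-encoded protein-coding genes (44.9%). Their median level was 43.5 TPM in replicate 1 and 28.0 TPM in replicate 2 (35.8 ± 10.9, SD, n = 2). The median over coding genes that reached 1 TPM in both was 11.2 TPM in replicate 1 and 8.53 TPM in replicate 2 (9.87 ± 1.90, SD, n = 2). Together the 10 genes took 0.124% of all counts in replicate 1 and 0.0707% in replicate 2.

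By mean TPM the order was Nlrp3, Gsdmd, Casp4, Aim2, Nlrp1b, Casp1, Il18, Nek7, Pycard and Nlrc4. The first 5 genes overlapped their neighbours in that order, so their order is not resolved. Nlrp1b stood above Casp1, Casp1 above Il18, and Nek7 above Pycard without overlap between the libraries' values. The order is of levels summed over all transcripts of a gene, coding or not. In Nlrp1b, 54.8% of the TPM in replicate 1 and 58.8% in replicate 2 lay on a transcript not annotated as coding. Il18 and Nek7 overlapped each other, and so did Pycard and Nlrc4. Pycard was the lower of that pair in replicate 1 and Nlrc4 in replicate 2, so the lowest place is not resolved.

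**Figure D1:**
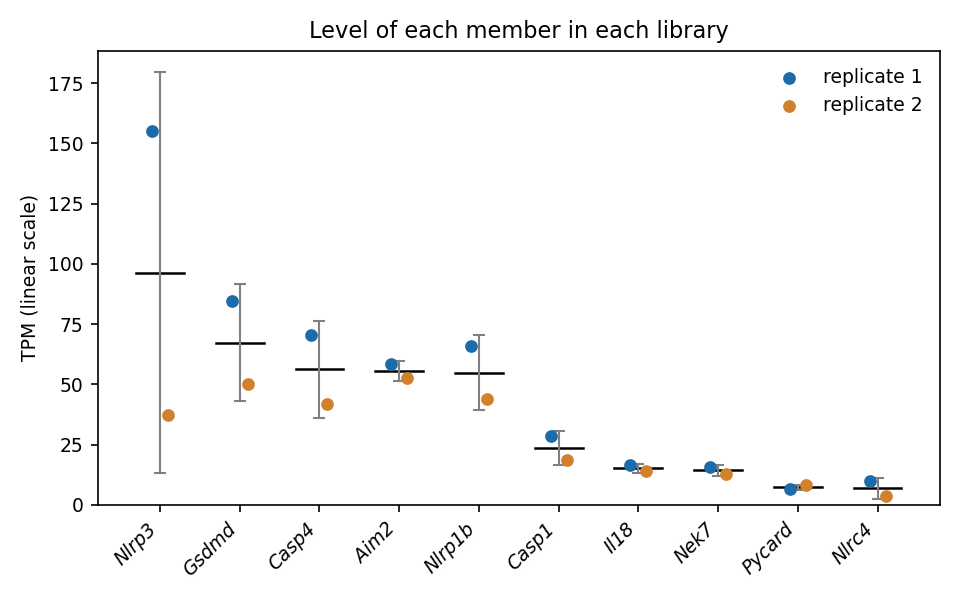
Level of each of the 10 genes in TPM (vertical axis, linear) in replicate 1 (blue, left) and replicate 2 (orange, right). The black line is the mean and the grey bar its SD over 2 libraries. Nlrp3 has the widest gap of the 10, with 155 TPM in replicate 1 against 37.4 TPM in replicate 2, while Aim2 lies at 58.4 and 52.5 TPM.

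Nlrp3 encodes the sensor that reacts to potassium efflux, crystals and pore-forming toxins, and it had the highest mean of the set and the widest gap between the libraries. It had 155 TPM in replicate 1 and 37.4 TPM in replicate 2 (mean 96.3 ± 83.2, SD, n = 2), from 11056 and 3261 expected counts. In replicate 2 alone, Aim2, Gsdmd, Nlrp1b and Casp4 lay above it in this quantification. Its mean ranked 388th among the coding genes. To compare the libraries, counts were scaled to the libraries' effective sizes and given as a log2 ratio of replicate 1 over replicate 2, with an exact 95% interval that covers counting error only. The ratio of Nlrp3 was 1.70 (1.65 to 1.76), a 3.25-fold higher scaled count in replicate 1. It was 1.67 after the trend of the ratio with GC content was taken out and 1.60 in the second quantification, a separate deposited estimate from the same reads. The TPM of that second estimate were 96.3 in replicate 1 and 66.2 in replicate 2, the highest of the 10 genes in both libraries. Their log2 ratio was 0.54, under 2-fold, on a scale where the median over all tested genes was -0.57.

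Nlrp3 lies on chromosome 11 (mm10, chr11:59541568-59566956, plus strand) and its 2 full-length coding transcripts begin at different first exons. Nlrp3-201 starts at position 59541568 and Nlrp3-202 at 59542686, and both carry a coding sequence of 3099 bases. Nlrp3-201 holds 36 bases found in no other Nlrp3 transcript, and Nlrp3-202 holds 71. RefSeq gives a promoter for each start (build GRCm38.p6, 250 bases before the start and 50 after). They are shown because the counts below divide between these starts. In the upstream window (chr11:59541319-59541618) the capitals mark a match to the NF-kB motif, 186 bases before the start. In the downstream window (chr11:59542436-59542735) they mark the PU.1 core GAGGAA or its reverse complement, 220, 129 and 36 bases before the start. NF-kB is the factor that TLR4 signalling activates, and PU.1 is a lineage factor of macrophages.
Nlrp3 upstream start: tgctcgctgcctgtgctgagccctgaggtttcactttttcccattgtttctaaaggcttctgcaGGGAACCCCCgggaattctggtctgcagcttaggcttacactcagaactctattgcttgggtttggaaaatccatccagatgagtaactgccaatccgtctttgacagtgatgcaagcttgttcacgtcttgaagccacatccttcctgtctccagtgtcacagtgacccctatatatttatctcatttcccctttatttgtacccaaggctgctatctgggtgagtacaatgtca
Nlrp3 downstream start: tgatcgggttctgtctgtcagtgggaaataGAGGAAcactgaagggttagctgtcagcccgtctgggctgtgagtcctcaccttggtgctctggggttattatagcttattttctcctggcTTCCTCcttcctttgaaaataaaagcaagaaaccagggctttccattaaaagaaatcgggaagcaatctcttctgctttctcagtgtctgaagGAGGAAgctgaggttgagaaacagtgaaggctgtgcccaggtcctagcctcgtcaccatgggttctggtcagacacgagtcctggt

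The quantifications divided the Nlrp3 counts between these starts in opposite ways. The first gave Nlrp3-201 7782 counts in replicate 1 and 2202 in replicate 2, which was 70.4% and 67.5% of the gene. The second gave the larger part to Nlrp3-202, with 10898 counts in replicate 1 and 4014 in replicate 2, or 74.5% and 69.6%. Within either quantification the libraries stayed close in this share, while the choice of quantification turned it round. The short transcript Nlrp3-203 had 0 counts in both libraries in the first quantification, and 1102 in replicate 1 and 825 in replicate 2 in the second. The excess in replicate 1 was present in both full-length transcripts. Their log2 ratios were 1.76 (1.69 to 1.83) for Nlrp3-201 and 1.57 (1.47 to 1.67) for Nlrp3-202 in the first quantification, and 1.76 and 1.70 in the second.

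**Figure D2:**
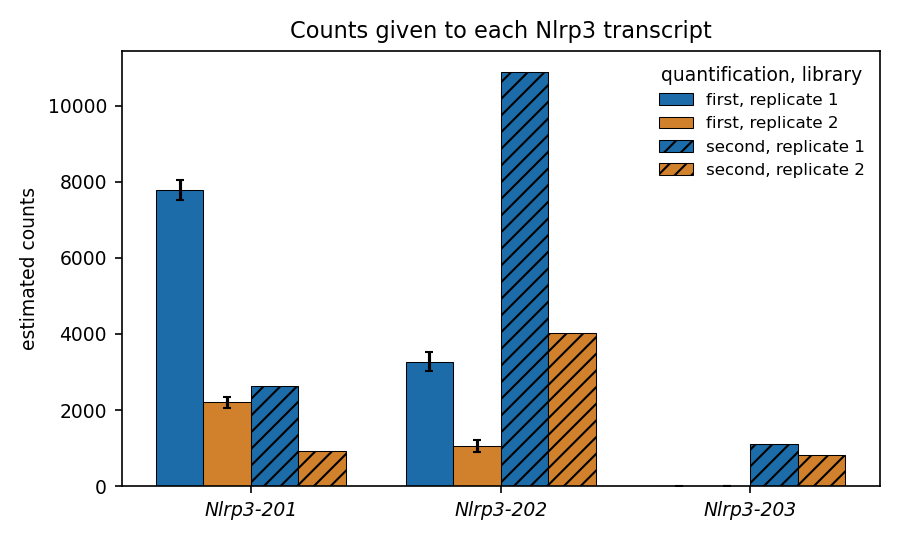
Estimated counts (vertical axis, linear) given to the 3 Nlrp3 transcripts by the first quantification (plain bars) and the second (hatched bars) in replicate 1 (blue) and replicate 2 (orange). Error bars on the plain bars are the posterior SD that the deposited table gives, 257 counts for Nlrp3-201 in replicate 1. The first quantification puts most counts on Nlrp3-201 and the second on Nlrp3-202, in both libraries.

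Nlrc4 encodes the sensor that oligomerises when NAIP proteins bind flagellin or secretion-system proteins, and with Pycard it was one of the lowest pair of the 10 genes. It had 9.90 TPM in replicate 1 and 3.78 TPM in replicate 2 (mean 6.84 ± 4.33, SD, n = 2), from 679 and 354 counts. After Nlrp3, it was the gene with the largest excess in replicate 1. Its log2 ratio was 0.88 (0.69 to 1.07) in the first quantification and 0.54 (0.42 to 0.66) in the second. The gene lies at chr17:74425438-74459142 on the minus strand.

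In the first quantification the Nlrc4 excess was larger in a transcript annotated as a target of nonsense-mediated decay, the route that degrades RNAs with early stop codons. That transcript, Nlrc4-202, had 306 counts in replicate 1 and 77.4 in replicate 2, a log2 ratio of 1.92 (1.57 to 2.31). The coding transcript Nlrc4-201 had 373 counts in replicate 1 and 277 in replicate 2, a log2 ratio of 0.37 (0.14 to 0.60). Nlrc4-202 thus took 45.1% of the gene's counts in replicate 1 and 21.9% in replicate 2. It holds 0 bases that no other Nlrc4 transcript holds, and the second quantification gave it 6.53% in replicate 1 and 2.27% in replicate 2. The high share therefore rests on the first quantification, although the log2 ratio of the transcript was 2.06 (1.41 to 2.80) in the second as well.

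Aim2 encodes the sensor of double-stranded DNA in the cytosol and in TPM of the first quantification was the steadiest of the sensors. It had 58.4 TPM in replicate 1 and 52.5 TPM in replicate 2 (mean 55.5 ± 4.18, SD, n = 2). Its log2 ratio of scaled counts was -0.22 (-0.34 to -0.09), and -0.06 once the GC trend was taken out. On the TPM scale the same ratio was 0.15, against a median of 0.35 over all genes on that scale. In the second quantification Aim2 had 37.1 TPM in replicate 1 and 53.4 TPM in replicate 2, a wider gap in TPM. Its log2 ratio there was -0.53, close to the median of -0.57 over all genes tested on that scale. The ratio of scaled counts in the second quantification was -0.09 (-0.19 to 0.00). In the first quantification most Aim2 counts lay on the coding transcript Aim2-204, with 78.0% in replicate 1 and 81.0% in replicate 2. The other long coding transcript, Aim2-202, begins far upstream at 173350879 on chromosome 1 and took 5.52% in replicate 1 and 1.81% in replicate 2. The second quantification gave Aim2-202 24.2% in replicate 1 and 25.7% in replicate 2. It gave Aim2-204 a smaller share than the first did, 50.5% in replicate 1 and 54.6% in replicate 2. Aim2-204 holds 0 bases found in no other Aim2 transcript.

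Nlrp1b encodes a sensor that is activated when proteases such as anthrax lethal factor cut its start, or when DPP8 and DPP9 are inhibited. Macrophages of C57BL/6J mice carry an allele that lethal factor does not activate. Nlrp1b had 65.8 TPM in replicate 1 and 43.8 TPM in replicate 2 (mean 54.8 ± 15.5, SD, n = 2), from 4886 and 4050 counts. The log2 ratio of scaled counts was 0.21 (0.15 to 0.27). Its paralog Nlrp1a, a neighbour in a tandem family with which reads may be shared, had 1.32 TPM in replicate 1, against 0.87 TPM in replicate 2.

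Most Nlrp1b counts fell on a transcript that is not annotated as coding. Nlrp1b-205, annotated as a target of nonsense-mediated decay, took 57.6% of the counts in replicate 1 and 60.6% in replicate 2. The second quantification gave it 65.0% in replicate 1 and 66.6% in replicate 2, so that this share held in both. Nlrp1b-205 is 4319 bases long, has an annotated coding stretch of 2019 bases against 3531 in Nlrp1b-202 and Nlrp1b-203, and holds 160 bases found in no other Nlrp1b transcript. The estimated counts of the coding transcripts did not move together between the libraries. The log2 ratio was 1.44 (1.25 to 1.64) for Nlrp1b-202 and -0.67 (-0.82 to -0.53) for Nlrp1b-203 in the first quantification, and 2.54 and -0.26 in the second. The intervals leave out the error of dividing counts between transcripts. Nlrp1b-202 had 811 counts with a posterior SD of 85.9 in replicate 1, and 286 with 93.9 in replicate 2. It holds 2 bases found in no other Nlrp1b transcript.

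Nek7 encodes a mitotic kinase that binds NLRP3 and is needed for NLRP3 to assemble. It differed from Nlrp3 in both level and evenness: it had 15.9 TPM in replicate 1 and 12.7 TPM in replicate 2 (mean 14.3 ± 2.22, SD, n = 2). The log2 ratio of scaled counts was -0.09 (-0.21 to 0.04), and its interval spans 0. Its sign was positive with the GC trend taken out (0.16) and in the second quantification (0.08). Nek7 spans 137267 bases on the minus strand of chromosome 1 (chr1:138482875-138620141). Within its introns lie 2 unclassified transcribed units on the same strand, Gm37080 with 136 counts in replicate 1 and 145 in replicate 2 and Gm37101 with 342 and 323 counts in the same order.

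Pycard encodes ASC and was the one gene of the set whose interval lay below 0 in both quantifications. It had 6.64 TPM in replicate 1 and 8.11 TPM in replicate 2 (mean 7.38 ± 1.04, SD, n = 2). The log2 ratio of scaled counts was -0.64 (-0.81 to -0.47), and -0.45 (-0.60 to -0.30) in the second quantification. Its transcript Pycard-201 is 3800 bases long for a coding sequence of 579 bases, and TPM divides by this length. The opposite strand holds the unit Gm45205, which shares 485 exon bases with Pycard and had 52.9 counts in replicate 1 and 54.3 in replicate 2. The sources used here do not say whether counting used strand, so reads of Pycard and Gm45205 may not be told apart.

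Casp1 encodes caspase-1, the protease at the centre of the canonical inflammasome. It had 28.6 TPM in replicate 1 and 18.6 TPM in replicate 2 (mean 23.6 ± 7.02, SD, n = 2), from 700 and 561 counts. The log2 ratio was 0.26 (0.10 to 0.42). Casp1 has a single annotated transcript, of 10 exons, so its level does not depend on how counts are split between transcripts of the gene. In the second quantification Casp1 had 13.7 TPM in replicate 1 and 18.4 TPM in replicate 2, from 1091 and 1082 counts. Its log2 ratio of first over second TPM was 1.05 in replicate 1 and 0.02 in replicate 2. The medians over genes that reached 1 TPM in each table were 0.93 and 0.04 in the same order. Relative to these medians, Casp1 lay at 0.12 in replicate 1 and -0.02 in replicate 2. It ends 1562 bases before the start of Casp4 on chromosome 9.

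Casp4, the sensor protease of the non-canonical pathway, had more than 2 times the Casp1 TPM in both libraries, summed over all transcripts. Its full-length coding transcript Casp4-201 alone had 7.83 TPM in replicate 1 and 5.68 TPM in replicate 2, below Casp1 in each. The gene had 70.5 TPM in replicate 1 and 41.9 TPM in replicate 2 (mean 56.2 ± 20.3, SD, n = 2), from 1123 and 897 counts. Its log2 ratio of scaled counts, 0.26 (0.14 to 0.39), was the same as that of Casp1 to 2 decimals. The second quantification gave a larger ratio for Casp4, 0.49 (0.40 to 0.58), and 0.27 for Casp1. Casp4 lies at chr9:5308828-5336783 on the plus strand.

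Casp4 had the largest share of counts outside coding transcripts in the set. These transcripts took 83.7% of its counts in replicate 1 (81.4 to 85.8) and 81.8% in replicate 2 (79.1 to 84.3), with exact 95% counting intervals. The second quantification gave 76.7% in replicate 1 and 75.3% in replicate 2. Among coding genes with such transcripts, the mean share of Casp4 was at the 95.9th percentile in the first quantification and at the 90.7th in the second. The full-length coding transcript Casp4-201 had 183 counts in replicate 1 and 163 in replicate 2. Casp4-204, which is annotated as a target of nonsense-mediated decay, had 353 in replicate 1 and 354 in replicate 2. Its log2 ratio was -0.06 (-0.28 to 0.15). The retained-intron transcripts Casp4-202 and Casp4-207, whose log2 ratios were 0.57 (0.31 to 0.84) and 0.58 (0.27 to 0.89), lay higher in replicate 1.

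Each of these Casp4 transcripts reads past a splice donor that Casp4-201 uses and ends inside the intron, except Casp4-207, which reaches an intron at another place. Casp4-202 keeps 711 bases of intron 7 (chr9:5328543-5335995), Casp4-204 keeps 1038 of the 1113 bases of intron 6 (chr9:5327320-5328432), and Casp4-205 keeps 228 bases of intron 2 (chr9:5321513-5322819). No reads were examined, and counts cannot tell these transcripts from incompletely processed nuclear RNA. The donor sites are shown because Casp4-202, Casp4-204 and Casp4-205 run across them, where Casp4-201 is spliced. Each has 15 bases on either side of the exon end, read from the GENCODE M21 transcripts on mm10, and the capitals mark the first bases of the intron.
Casp4-202 intron 7: gatatattcctgaagGTgaatgctttgcag
Casp4-204 intron 6: actctacaaccccacGTatgtattttctaa
Casp4-205 intron 2: gccaccatggtgaagGTaagagcagaatgt
All 3 introns open with GT, the usual donor.

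The Casp4 promoter window of RefSeq (GRCm38.p6, chr9:5308599-5308898) held NF-kB matches at 93, 92 and 39 bases before the start, of which the matches at 93 and 92 overlap. It is shown because Casp4 and Nlrp3 were the only members with this motif among the 9 with a window in the table. Capitals mark the matches.
Casp4: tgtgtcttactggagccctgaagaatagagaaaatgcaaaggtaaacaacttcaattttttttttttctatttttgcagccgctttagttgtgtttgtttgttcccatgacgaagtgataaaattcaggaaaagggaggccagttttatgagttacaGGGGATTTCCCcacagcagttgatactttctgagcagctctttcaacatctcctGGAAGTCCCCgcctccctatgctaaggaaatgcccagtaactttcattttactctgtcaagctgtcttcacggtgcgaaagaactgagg
On either strand the NF-kB motif was found in 8.46% of the 32851 promoter windows of the table, and in 3 of 12 member windows, 2 of which are the overlapping windows of Casp4. The PU.1 core GAGGAA was found in 28.3% of all windows and in 5 member windows, those of Aim2, Casp1, Nlrp1b, Nlrp3 and Pycard. TATAAA was found in 13.6% of all windows and in that of Il18. Neither the AP-1 motif TGANTCA (7.81% of all windows) nor the interferon-stimulated response element (3.44%) was found in a member window. Some windows are not at the start of the transcript with most counts in the first quantification. The Aim2 window (chr1:173420354-173420653) is not at the start of Aim2-204 (173455354). The Il18 window (chr9:50554450-50554749) is not at that of Il18-202 (50575273). A match describes the letters and was not tested as a binding site. The table holds no window for Gsdmd.

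Gsdmd encodes gasdermin D, the pore protein that caspase-1 and caspase-4 cut. By mean level in the first quantification, summed over all transcripts, it came after Nlrp3. Gsdmd had 84.4 TPM in replicate 1 and 50.3 TPM in replicate 2 (mean 67.4 ± 24.1, SD, n = 2). In the second quantification the mean of Gsdmd, 39.9 TPM, was also below those of Casp4 (64.1 TPM) and Aim2 (45.2 TPM). Its log2 ratio of scaled counts was 0.52 (0.40 to 0.63), 0.52 in the second quantification, and 0.36 with the GC trend taken out. The coding transcript Gsdmd-201 held 73.2% of the counts in replicate 1 and 60.7% in replicate 2. The rest lay almost wholly on 3 retained-intron transcripts, with 26.3% in replicate 1 (24.0 to 28.5) and 38.7% in replicate 2 (35.7 to 41.8).

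The retained-intron transcripts of Gsdmd did not move together. Gsdmd-205 had 67.2 counts in replicate 1 and 21.8 in replicate 2, a log2 ratio of 1.53 (0.83 to 2.31), and 1.59 in the second quantification. Gsdmd-206 had 79.4 counts in replicate 1 and 185 in replicate 2, a log2 ratio of -1.28 (-1.69 to -0.90), but 0.09 (-0.27 to 0.44) in the second. The lower share of intron-holding Gsdmd RNA in replicate 1 therefore came mainly from Gsdmd-206 and was small in the second quantification, at 29.7% in replicate 1 and 32.0% in replicate 2. Gsdmd-206 keeps all 99 bases of intron 9 (chr15:75866691-75866789). Gsdmd-204 keeps 71 of the 74 bases of intron 8 (chr15:75866472-75866545). The donor sites of these introns, with 15 bases on either side and the first bases of the intron in capitals, are shown beside that of Nek7-204, the one retained-intron transcript of Nek7.
Gsdmd-204 intron 8: gccttagaggcctcaGTaagtgagagtgtt
Gsdmd-206 intron 9: tgggagcactggctgGTgagcagctcgagg
Nek7-204 intron 7: ctgcacattctttagGTaagaggcatgatt
Nek7-204 keeps 1880 bases of an intron of 12959 bases (chr1:138502666-138515624, minus strand). It took 26.5% of the Nek7 counts in replicate 1 and 23.3% in replicate 2, and 23.8% and 21.7% in the same order in the second quantification.

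Il18 encodes the pro-form of interleukin-18, which caspase-1 activates and which drives interferon-γ production by T and NK cells. It had the fewest counts of the set, 167 in replicate 1 and 175 in replicate 2. Its level was 16.5 TPM in replicate 1 and 13.95 TPM in replicate 2 (mean 15.2 ± 1.83, SD, n = 2). The log2 ratio was -0.13 (-0.44 to 0.19), with the widest interval of the 10, and the depth could not resolve a difference between the libraries. All 4 Il18 transcripts are annotated as coding. The first quantification gave Il18-201 no expected counts in either library and the second gave it 83.4 in replicate 1 and 62.3 in replicate 2. Il18-201 and Il18-202 share the same ends and the same length of 702 bases. In the first quantification the posterior mean of Il18-201 was 18.2 counts (posterior SD 16.4) in replicate 1. It was 16.0 counts (posterior SD 15.2) in replicate 2, so the division between Il18-201 and Il18-202 is not resolved.

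Across the set, 6 of 10 genes had a ratio interval above 0 (Nlrp3, Nlrc4, Gsdmd, Casp4, Casp1 and Nlrp1b) and 2 of 10 an interval below 0 (Aim2 and Pycard). For the 15557 genes tested, those whose scaled counts averaged at least 10, these shares were 25.6% and 24.5%. The shares were not matched for counts, and more counts give narrower intervals. Il18, with the fewest counts of the 10, had scaled counts of 164 in replicate 1 and 179 in replicate 2. The median log2 ratio was 0.24 over the 10 genes, 0.21 without Nlrp3, and -0.00344 over all genes tested. Past 2-fold, with the interval clear of 0, 1 of 10 genes was higher in replicate 1 (Nlrp3), where 3.67% of all tested genes were called. None was higher in replicate 2, where 4.36% of all tested genes were called. The ratio of Nlrp3 lay at the 99.0th percentile of all tested genes, that of Nlrc4 at the 94.6th and that of Pycard at the 11.4th. These ratios are of scaled counts. As ratios of TPM in the second quantification, 1 of the 10 genes (Nlrp3) was higher in replicate 1 and none was past 2-fold. The median there was -0.39 over the 10 genes and -0.57 over all genes tested. On scaled counts, the median size of the ratio, ignoring its sign, was 0.26 over the 10 genes and 0.31 over all genes tested.

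**Figure D3:**
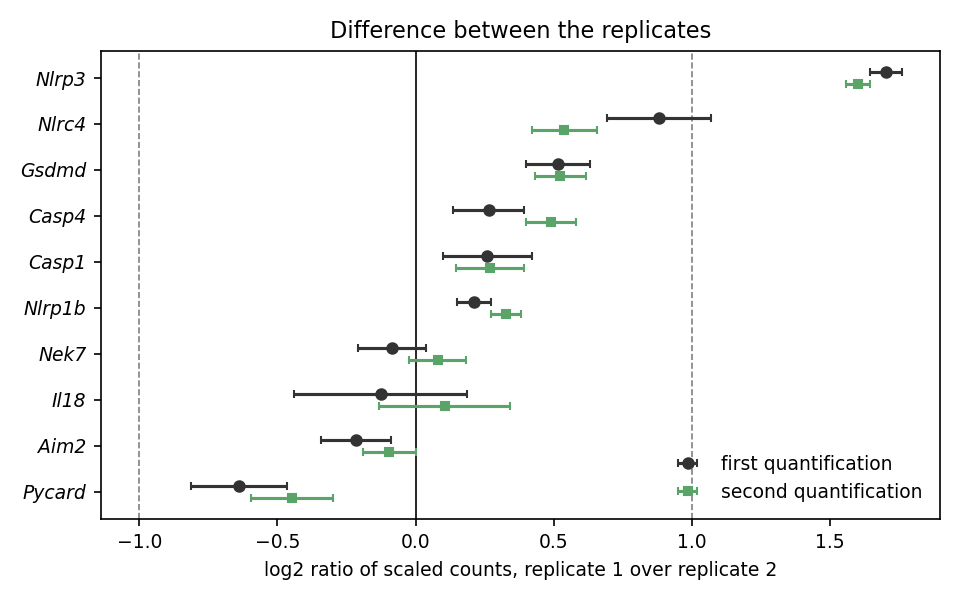
Log2 ratio of scaled counts, replicate 1 over replicate 2 (horizontal axis), for each gene in the first quantification (black circles) and the second (green squares), with exact 95% intervals for counting error. Dashed lines mark 2-fold. Nlrp3 alone lies past 2-fold, at 1.70 and 1.60, and Pycard lies lowest, at -0.64 and -0.45.

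The 6 genes with a transcript outside the coding class had a median of 35.8% of their counts on such transcripts in replicate 1 and 31.0% in replicate 2 (33.4 ± 3.40, SD, n = 2). The comparable 8467 coding genes, which averaged at least 1 TPM and have a transcript of this kind, had a median of 20.1% in replicate 1 and 20.8% in replicate 2 (20.4 ± 0.489, SD, n = 2). In the second quantification the medians were 26.8% over the 6 genes and 28.2% over the coding genes, so that the set as a whole did not stand above the background there. Casp4 and Nlrp1b kept their high shares in both quantifications, and Aim2 its low share of counts, at 9.33% in replicate 1 and 9.20% in replicate 2. As a share of TPM, which weights short transcripts more, Aim2 had 48.2% in replicate 1 and 45.7% in replicate 2, above the median of 37.1% over the coding genes. Nlrp3, Pycard, Casp1 and Il18 have no annotated transcript outside the coding class, so the tables hold no intron-keeping transcript for them. Nuclear RNA holds incompletely processed transcripts, and these shares cannot tell them from finished transcripts of the same classes.

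**Figure D4:**
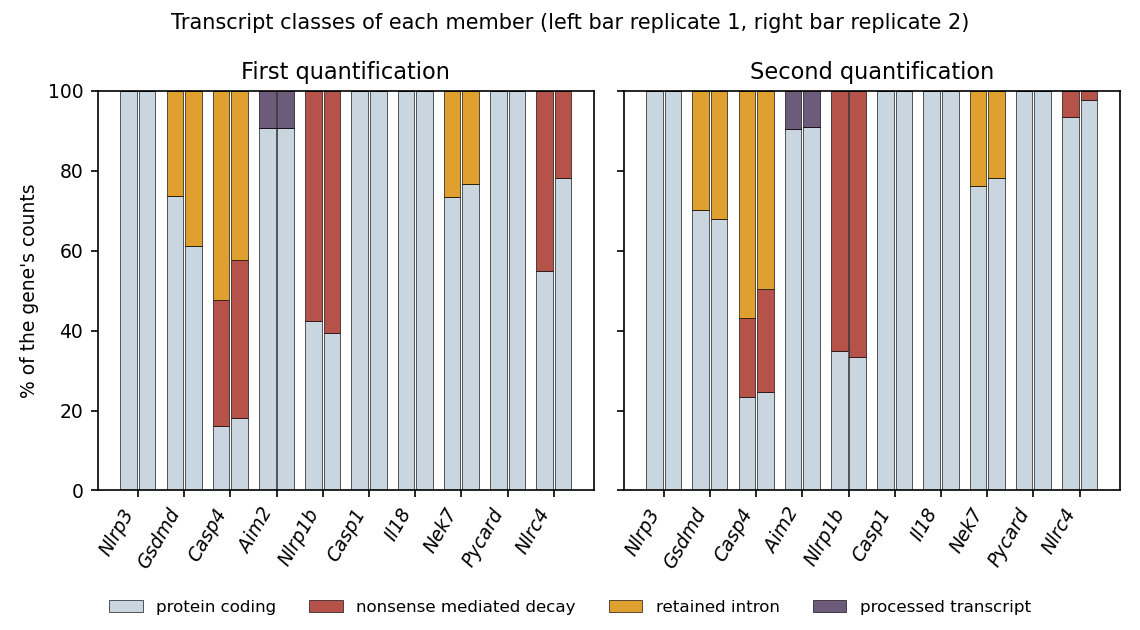
Share of each gene's counts (vertical axis, percent) on transcripts annotated as protein coding, nonsense-mediated decay, retained intron or processed transcript, in the first quantification (left panel) and the second (right panel). In each pair the left bar is replicate 1 and the right bar replicate 2. Casp4 and Nlrp1b lie mostly outside the coding class in both panels, whereas Nlrc4 has 45.1% and 21.9% outside it in the left panel and 6.53% and 2.27% in the right.

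The levels themselves also shifted between the quantifications. For genes that reached 1 TPM in each table, the median log2 ratio of first over second was 0.93 in replicate 1 and 0.04 in replicate 2. Relative to these medians, the 10 genes had a median of 0.10 in replicate 1 and 0.13 in replicate 2. None of the 10 was over 2-fold apart after this centring in replicate 1, where 12.0% of all genes were, nor in replicate 2, where 10.4% were. Nlrp3 in replicate 2 (-0.86) and Casp4 (-0.79 in replicate 1 and -0.65 in replicate 2) came closest, both lower in the first quantification. Nlrp1b lay on the other side, at 0.55 in replicate 1 and 0.49 in replicate 2.

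Around these genes, 82 other genes of the pathway were followed in 7 lists, of which 80 were found by symbol and 60 reached 1 TPM in both libraries. Of 65 with enough counts, 4 were over 2-fold higher in replicate 1 and 1 was over 2-fold higher in replicate 2, beside the 3.67% and 4.36% of all genes given above. Those higher in replicate 1 were Irf1, Gbp5, Tnfaip3 and Casp12, and Hmgb1 was the one higher in replicate 2. Irf1, an interferon regulatory factor that activates Gbp genes, had 823 TPM in replicate 1 and 181 TPM in replicate 2, a log2 ratio of 1.85 (1.81 to 1.89). Tnfaip3, which encodes the NF-kB inhibitor A20, had 402 TPM in replicate 1 and 194 TPM in replicate 2, a ratio of 1.12 (1.09 to 1.16). Gbp5, a guanylate-binding protein, had 76.2 TPM in replicate 1 and 25.1 TPM in replicate 2, a ratio of 1.26 (1.19 to 1.34). On scaled counts Nlrp3 was thus uneven in the same direction as 4 of the 65 list genes tested, Irf1, Gbp5, Tnfaip3 and Casp12. Casp12 had few counts, 20 in replicate 1 and 8 in replicate 2. The lists were chosen with earlier results of these data known. The part of RNA input or any other property of the libraries in this unevenness was not tested.

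Among other sensors and co-receptors, 9 of 15 reached 1 TPM in both libraries and none of 12 tested was past 2-fold in either direction. Nlrc5, a regulator of MHC class I genes, led with 92.2 TPM in replicate 1 and 60.1 TPM in replicate 2. Naip5 and Naip6, which bind flagellin for NLRC4, had 27.7 and 24.8 TPM in replicate 1 and 16.5 and 18.9 TPM in replicate 2, so that both lay above Nlrc4 itself in each library. The Naip genes are closely similar copies and the counting may have split reads between them. Nlrp9b and Nlrp12 were listed at 0.

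Among other caspases and pore proteins, 8 of 14 reached 1 TPM in both. Ninj1, which encodes the membrane protein that ruptures the cell after gasdermin pores form, had 64.1 TPM in replicate 1, against 35.5 TPM in replicate 2. The initiator caspase gene Casp8 had 28.6 TPM in replicate 1 and 28.0 TPM in replicate 2, and Casp9 had 8.62 and 6.41 TPM in the same order. Casp12 had 20 counts in replicate 1 and 8 in replicate 2, a ratio of 1.21 (0.02 to 2.65). Gsdmd stood above every other gasdermin gene of the list: Gsdme had 6.24 TPM in replicate 1 and 4.96 TPM in replicate 2, and Gsdma, Gsdma2 and Gsdma3 were listed at 0. The second quantification gave Gsdma2 4.80 TPM in replicate 1 and 5.67 TPM in replicate 2.

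Among released cytokines and their receptors, 6 of 11 reached 1 TPM in both. Il1b, the other main substrate of caspase-1, had 351 TPM in replicate 1 and 137 TPM in replicate 2, a log2 ratio of 0.98 (0.91 to 1.05), whose interval includes 2-fold. Il18, with 16.5 TPM in replicate 1 and 13.95 TPM in replicate 2, was lower than Il1b in both libraries and did not share its gap between them. Il1a had 55.5 TPM in replicate 1 and 24.9 TPM in replicate 2, and the antagonist gene Il1rn had 37.9 and 24.7 TPM in the same order. Hmgb1, a chromatin protein that dying cells release, had 16.5 TPM in replicate 1 and 29.9 TPM in replicate 2, a ratio of -1.17 (-1.33 to -1.01). Il33 was listed at 0.

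Of 13 genes tied to NLRP3 activation, 12 reached 1 TPM in both and none was past 2-fold. The highest were Txnip, with 39.1 TPM in replicate 1 and 55.1 TPM in replicate 2, P2rx7, the ATP-gated channel that triggers potassium efflux, with 52.2 and 31.8 TPM in the same order, and the kinase gene Irak1, with 43.3 and 31.3 TPM. Prkd1 was listed at 0. Of 10 genes found among those that restrain inflammasomes, 8 reached 1 TPM in both. Beside Tnfaip3 the highest were Dpp8, whose product holds NLRP1B inactive, with 59.7 TPM in replicate 1 and 46.1 TPM in replicate 2, and the ubiquitin ligase gene March7, with 47.6 and 40.0 TPM. Trim31 was listed at 0.

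All 12 genes of lipopolysaccharide delivery and transcriptional control reached 1 TPM in both. After Irf1 the highest were Irf8, with 66.3 TPM in replicate 1 and 41.1 TPM in replicate 2, and Irf2, an activator of Gsdmd, with 68.6 and 38.7 TPM in the same order. The adaptor gene Ticam1 was lowest, with 5.84 TPM in replicate 1 and 3.94 TPM in replicate 2. All 5 genes of necroptosis and linked death reached 1 TPM in both. Ripk1 had 33.9 TPM in replicate 1 and 36.5 TPM in replicate 2, Zbp1 had 30.6 and 23.5 TPM, Mlkl had 13.5 and 8.03 TPM, and Fadd was lowest with 1.67 and 1.71 TPM.

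**Figure D5:**
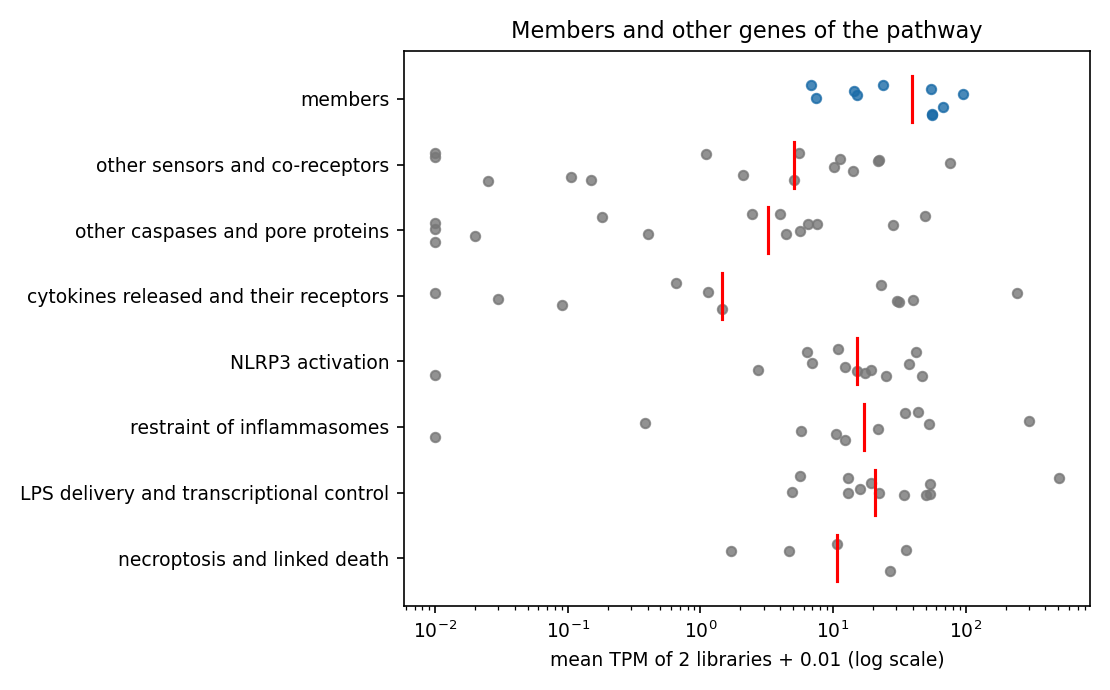
Mean TPM of each gene over the 2 libraries, with 0.01 added (horizontal axis, log scale), for the 10 inflammasome genes (blue) and 80 other genes of the pathway in 7 lists (grey). Points are scattered vertically only to separate them, and the red line is the median of each row. The 10 genes lie between Nlrc4 at 6.84 TPM and Nlrp3 at 96.3 TPM, while 5 of the 7 lists hold genes listed at 0.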

How the data were processed

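Each of the 2 libraries had its own gene and transcript tables. The deposited expected counts, TPM and FPKM form the first quantification, with column names that RSEM writes per the file headers, and the deposited estimated counts and TPM of the second have, per the file headers, the names used by kallisto. The notes deposited with the tables name mm10 and GENCODE M21. For aligner, versions and strand setting: not given in the sources used here. Expected counts were rounded and scaled with edgeR 4.0.16 (TMM, R 4.3.3) over all genes, and DESeq2 1.42.0 size factors were an alternative. Ratios used a prior count of 0.5 and exact Clopper-Pearson intervals at 95%, which cover counting error only (the labels mention no molecular identifiers). For single transcripts and shares, the intervals leave out the error of dividing a gene's counts between its transcripts. A count of 0 allows up to 3 counts, which is 0.165 CPM in replicate 1 and 0.161 CPM in replicate 2. Genes needed a mean scaled count of 10. Between quantifications, log2(TPM + 0.1) was used. The GC trend was a lowess curve (statsmodels 0.14.6, span 0.3). The ratio script was tested on simulated data. The 10 genes and the lists were chosen with earlier results of these data known. Named genes were the 10 members and, from each list, the 3 with the highest mean TPM, the lowest, and those past 2-fold. Nlrp1a and Gsdme, outside this rule, were named after their values were seen. With 1 group, no test was run. One donor site is not reported here. Tables and figures used Python 3.11.15, pandas 2.3.3, scipy 1.17.1 and matplotlib 3.10.9.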

Additional observations from a re-analysis of the deposited data

How the results depend on the processing

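All 10 genes stayed at 1 TPM or more in both libraries with the second quantification, posterior-mean TPM, FPKM or a minimum of 0.5 TPM, and 9 of 10 reached 5 TPM, all but Nlrc4. Their median level of 35.8 TPM was 21.5 TPM in the second quantification and 59.8 TPM when TPM was rescaled over long nuclear genes without mitochondrial and ribosomal loci. Without replicate 1 it was 28.0 TPM and without replicate 2 it was 43.5 TPM. The median log2 ratio of 0.24 was 0.60 as a ratio of TPM, where the median of all genes was 0.35, -0.39 as a ratio of TPM in the second quantification, where it was -0.57 for all genes, and 0.24 to 0.33 under the other alternatives. The count of genes over 2-fold apart, 1, was 2 as a ratio of TPM (Nlrp3 and Nlrc4), 0 as a ratio of TPM in the second quantification and 3 over 1.5-fold (with Pycard). Nlrp3 was over 2-fold higher in replicate 1 on counts of either quantification and on TPM of the first, at log2 ratios of 1.60 to 2.05, but at 0.54 on TPM of the second. The signs of Nek7, Il18 and Aim2 changed with the setting: as ratios of TPM in the first quantification they were 0.32, 0.24 and 0.15. On TPM of the second, Nlrc4, Nlrp1b, Casp1, Casp4 and Gsdmd changed sign too, at -0.14, -0.36, -0.42, -0.01 and -0.03. The ratio of TPM in the second quantification and the GC trend taken out were alternatives chosen after seeing the data, and without the GC trend the median ratio was 0.30. The median share on transcripts outside the coding class, 33.4%, was 26.8% in the second quantification and 53.2% as a share of TPM, and 31.0% without replicate 1 and 35.8% without replicate 2. The median of first over second quantification, 0.12, was 0.14 with a pseudocount of 1 and -0.10 on counts. It was 0.13 without replicate 1 and 0.10 without replicate 2. The causes of these shifts were not tested. No paired analysis was possible because there is 1 group. Low counts limit Il18, whose interval spans 0.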
